A study of Mus musculus with 24 samples.

Results

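The genes described here make and load the MHC class I molecule of the mouse: the heavy chains H2-D1 and H2-K1, the light chain B2m, the peptide transporter subunits Tap1 and Tap2, the loading chaperone Tapbp, the inducible proteasome subunits Psmb8, Psmb9 and Psmb10, and Nlrc5, a transactivator of class I genes. They are a list of 10 named genes, taken by symbol from a table of 54446 gene identifiers. All 10 were found, were above 0 in all 24 libraries and were among the 15216 genes tested, which had a mean of at least 0.5 FPKM (a level per length of gene, adjusted for the depth of each library). Every library was bulk polyadenylated RNA of mouse corpus callosum, the large white matter tract between the hemispheres. There were 8 libraries of cuprizone mice given BTKi, 8 of cuprizone mice given vehicle, 4 of naive mice given BTKi and 4 of naive mice given vehicle. Cuprizone is a copper chelator that kills oligodendrocytes and strips myelin, and BTKi is read here as an inhibitor of Bruton's tyrosine kinase, a signalling kinase of B cells and myeloid cells. The compound, its dose, the length of feeding, and the strain, genotype, sex and age of the mice are not stated in the labels used here, and nothing in them states whether each library is a separate animal. The p-values therefore measure the spread between these libraries, which may be technical in part.

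Class I molecules show peptides from inside the cell to CD8 T cells. Proteasomes cut proteins into peptides, the Tap1 and Tap2 transporter moves these into the endoplasmic reticulum, Tapbp (tapasin) holds the empty heavy chain at the transporter, and a heavy chain that has bound B2m and a peptide goes to the surface. Interferons raise most of these genes, in part through IRF1, and they also raise Psmb8, Psmb9 and Psmb10, which take the place of the catalytic subunits Psmb5, Psmb6 and Psmb7 in newly built proteasomes. In healthy brain class I expression is low in most cells and is known to rise in glia under inflammation.

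Promoter sequence shows which known control elements these genes share, and RefSeq windows on GRCm38.p6, from 250 bases before to 50 after the start site, were at hand for 8 of the 10 genes, all but Tap2 and Nlrc5. The stretches below hold the matches of the 2 heavy chains and the light chain, written 5′ to 3′ on the strand of the gene, with matches in capitals: the NF-kappaB consensus, an IRF site (GAANNGAAA), an interferon-stimulated response element (GAAA, any 2 bases and a further GAAA) and CCAAT, each searched on both strands. They lie at chr17:35262913-35263055 on the plus strand (H2-D1), chr17:34000325-34000468 on the minus strand (H2-K1) and chr2:122147538-122147648 on the plus strand (B2m).
H2-D1: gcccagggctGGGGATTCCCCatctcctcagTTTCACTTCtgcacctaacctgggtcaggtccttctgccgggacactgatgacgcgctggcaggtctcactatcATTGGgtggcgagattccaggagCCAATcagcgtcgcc
H2-K1: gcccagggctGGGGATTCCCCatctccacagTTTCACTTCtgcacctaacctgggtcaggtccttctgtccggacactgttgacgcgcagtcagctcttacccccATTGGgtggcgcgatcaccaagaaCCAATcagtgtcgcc
B2m: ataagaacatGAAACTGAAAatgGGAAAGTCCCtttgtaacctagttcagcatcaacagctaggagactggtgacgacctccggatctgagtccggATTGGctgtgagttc
H2-D1 and H2-K1 held the same elements in the same order, NF-kappaB (as 2 overlapping matches), IRF and 2 CCAAT boxes, and 88.2% of the aligned columns of these stretches were identical. Counted from the start site, B2m held a response element at -139, an NF-kappaB match at -126 and a CCAAT box at -53. Of all 32851 windows, 4.51% held the NF-kappaB consensus, 7.52% the IRF site, 3.44% the response element and 37.4% CCAAT. The matches describe letters only and were not tested for binding.

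Tap1 and Psmb9 are neighbours on opposite strands, and their RefSeq start sites are 226 bases apart, so that 1 stretch lies upstream of both RefSeq starts. In the GENCODE M21 annotation the Psmb9 gene reaches further, to 34187764, so that this stretch lies inside it. The bases between the start sites, chr17:34187331-34187555 on the plus strand, are shown as they read towards Tap1, with the CCAAT box in capitals.
Tap1 and Psmb9: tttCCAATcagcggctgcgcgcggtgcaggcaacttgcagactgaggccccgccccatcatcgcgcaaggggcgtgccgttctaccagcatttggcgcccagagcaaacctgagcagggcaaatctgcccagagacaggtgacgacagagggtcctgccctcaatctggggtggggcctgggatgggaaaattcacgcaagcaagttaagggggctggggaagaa
This box, at -222 from the Tap1 start and -8 from that of Psmb9, was the only match in either window. The Tapbp window held 2 CCAAT boxes, the Psmb8 window 1 GAS site (TTCNNNGAA, present in 8.30% of windows) at -97, and the Psmb10 window none of the 5 motifs.

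Of the 10 genes, 7 cluster on chromosome 17 in the MHC region, by GENCODE M21 coordinates on GRCm38. Tapbp (ENSMUSG00000024308.14) lies at 33915899-33929292 on the plus strand, H2-K1 (ENSMUSG00000061232.15) at 33996017-34000347 on the minus strand, Psmb9 (ENSMUSG00000096727.2) at 34181987-34187764 on the minus strand and Tap1 (ENSMUSG00000037321.17) at 34187553-34197225 on the plus strand. Psmb8 (ENSMUSG00000024338.14) follows at 34197721-34201454, Tap2 (ENSMUSG00000024339.12) at 34203527-34216321 and H2-D1 (ENSMUSG00000073411.11) at 35262730-35267499, all on the plus strand. B2m (ENSMUSG00000060802.8) lies on chromosome 2 at 122147686-122153083 on the plus strand, Psmb10 (ENSMUSG00000031897.9) on chromosome 8 at 105935735-105938444 on the minus strand, and Nlrc5 (ENSMUSG00000074151.13) on chromosome 8 at 94434356-94527272 on the plus strand. All 10 are protein-coding, and the coordinates span the whole gene, exons, introns and untranslated regions.

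Depth was close across libraries: steps in the low values put the deepest library at about 3.09e+07 fragments and the shallowest at 85.9% of the deepest, with the next at 96.7%. From the FPKM and exon lengths this corresponds to about 56 to 418 fragments for Nlrc5, the lowest of the 10 genes, 66 to 339 for Psmb9, and 2022 to 8241 for B2m. Oligodendrocyte markers were lower in cuprizone mice in 10 of 10 genes with either treatment, and the 10 summed to 1108 to 2658 FPKM in the 16 cuprizone libraries. Their sum was 3033 to 3098 FPKM under naive BTKi and 3496 to 4908 FPKM under naive vehicle. Between these 2 naive groups 0 of the 10 were called, although all 10 estimates were lower under BTKi (median log2 difference -0.32). Neuronal RNA was high throughout: 8 neuronal markers summed to 2107 to 2559 FPKM over the 24 libraries, and Snap25, a synaptic protein gene of neurons, averaged 984 FPKM, although the corpus callosum holds few neuronal cell bodies. The share of neighbouring tissue in the libraries was not tested. Cuprizone vehicle libraries 1, 4 and 7 stood apart in 8 choroid plexus markers, which summed to 125, 32.0 and 37.1 FPKM there, against a median of 855 FPKM over the group. Cuprizone vehicle libraries 5 and 8 had the highest sums of 16 microglial markers in their group, 808.4 and 1120 FPKM. Values without some of these libraries are given beside the results that rest on them.

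Class I expression was higher in cuprizone than in naive mice given vehicle. Of the 10 genes, 9 were higher in cuprizone vehicle than in naive vehicle libraries and none lower, with a median difference of 0.90 on the log2(FPKM + 0.5) scale, which understates the change of low genes. Over all genes tested 10.2% were higher and 4.82% lower, with a median of 0.03 (limma, adjusted p under 0.05 over all 15216 genes). After median ratio scaling 1241 genes were higher and 961 lower, and after quantile normalization 1205 and 1072, against 1555 and 733 as deposited; the 10 genes gave 9 calls under each.

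The heavy chain H2-D1 had the largest difference of the 10 in this contrast with a pseudocount of 0.5, while Psmb8 was ahead of it (1.44 against 1.37) with a pseudocount of 0.1. It had 34.7 FPKM at the lowest, 43.2 at the median and 66.7 at the highest in 8 cuprizone vehicle libraries, against 17.4, 16.8, 17.3 and 18.0 FPKM in 4 naive vehicle libraries. The groups did not overlap, and the log2 difference was 1.35 (SE 0.15, limma adjusted p = 8.43e-07). H2-K1 had 22.0, 28.8 and 44.3 FPKM at the lowest, median and highest under cuprizone vehicle, against 12.0, 12.7, 13.6 and 11.4 FPKM under naive vehicle, again with no overlap (log2 difference 1.24, SE 0.16, adjusted p = 4.26e-06). Cuprizone vehicle libraries 8 and 5 were the highest and 7 the lowest for both heavy chains.

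B2m, the shared light chain, was the most abundant of the 10 per length in every group. It had 150.1, 173.3 and 310.1 FPKM at the lowest, median and highest in cuprizone vehicle libraries, against 93.7, 77.5, 82.7 and 96.2 FPKM in naive vehicle libraries. No cuprizone library was as low as the highest naive one (log2 difference 1.15, SE 0.16, adjusted p = 1.19e-05). The balance of the heavy chains stayed near the same level: H2-D1 made up 58.6% to 61.4% of the summed H2-D1 and H2-K1 FPKM in cuprizone vehicle libraries and 56.0% to 61.2% in naive vehicle libraries. Of the 50-base words of the transcripts of H2-D1 and H2-K1, 12.8% and 9.63% also occur in transcripts of other genes, so part of their reads could be shared with near-identical class I genes; B2m shared none.

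**Figure D1:**
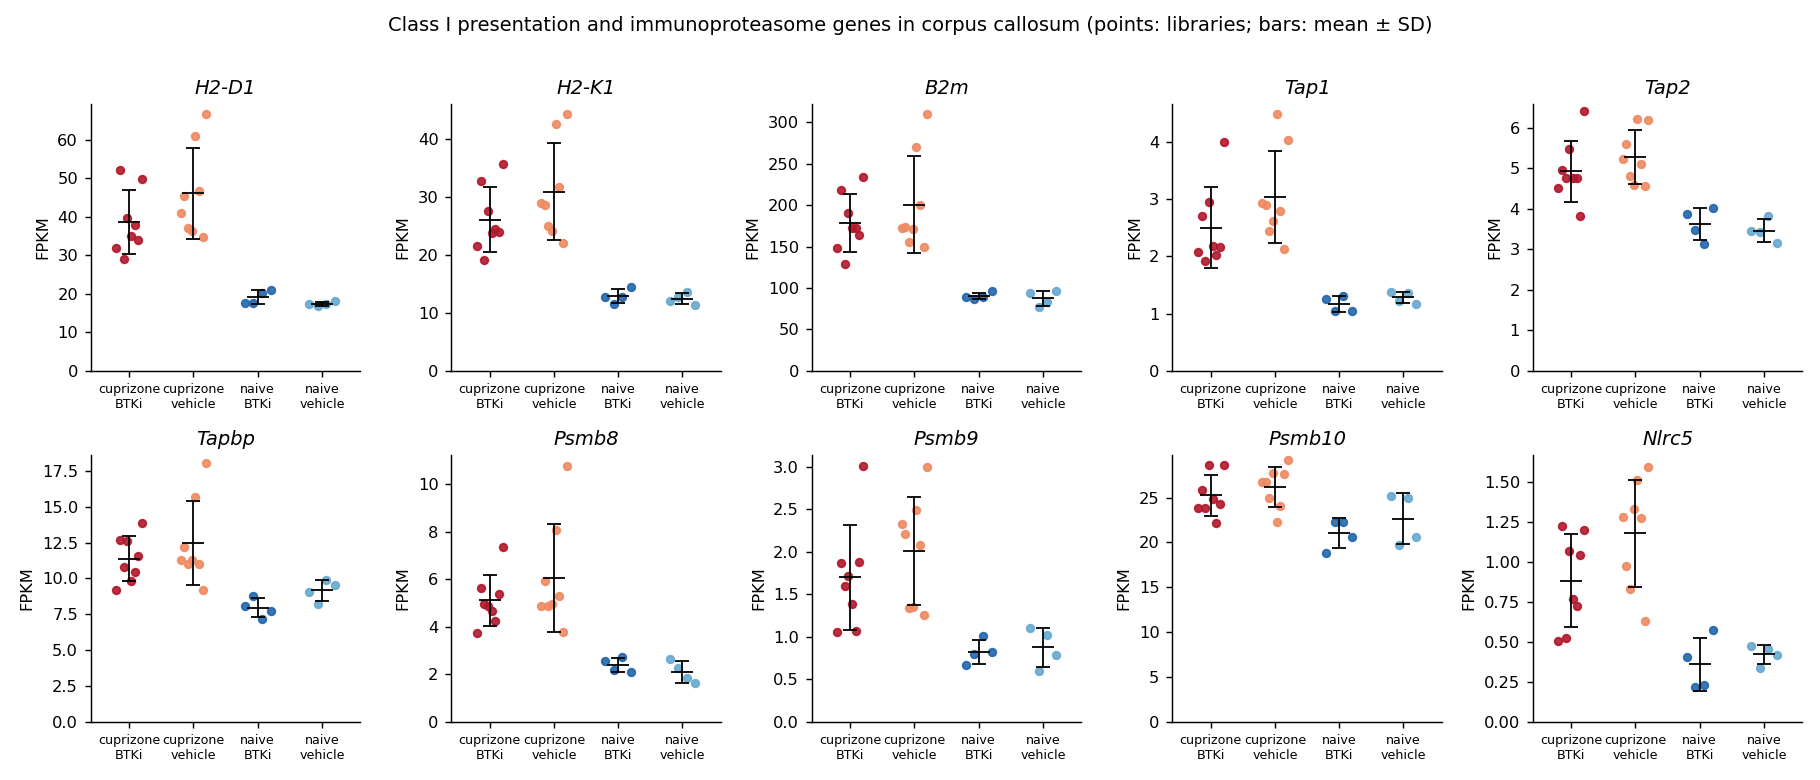
FPKM of the 10 genes in each library (points) of cuprizone BTKi and cuprizone vehicle (8 each) and naive BTKi and naive vehicle (4 each), with mean and SD as bars; each panel starts at 0. All cuprizone points lie above all naive ones for H2-D1, H2-K1, B2m, Tap1 and Psmb8. Some cuprizone points reach down among the naive ones for Tap2, Tapbp, Psmb9, Psmb10 and Nlrc5. The 2 cuprizone groups overlap in every panel.

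Both transporter subunits rose, and the difference between them was not tested. Tap1 had 2.12, 2.85 and 4.48 FPKM at the lowest, median and highest in cuprizone vehicle libraries, against 1.37, 1.22, 1.37 and 1.17 FPKM in naive vehicle libraries (log2 difference 0.96, SE 0.15, adjusted p = 6.32e-05). Tap2, its partner, had 4.55, 5.16 and 6.20 FPKM, against 3.44, 3.41, 3.83 and 3.14 FPKM (log2 difference 0.54, SE 0.10, adjusted p = 0.000288). Neither pair of groups overlapped. Tapbp had 9.22, 11.3 and 18.0 FPKM at the lowest, median and highest under cuprizone vehicle, against 9.04, 8.21, 9.88 and 9.55 FPKM under naive vehicle. The Tapbp groups overlapped, since cuprizone vehicle 7 was below naive vehicle 3 and 4, and the log2 difference was 0.40 (SE 0.12, adjusted p = 0.0304). This call ended without naive vehicle 1, 2 or 4 or cuprizone vehicle 5 (adjusted p = 0.064, 0.111, 0.0538 and 0.0571), without the filter on low values (0.0721), and with only these 2 groups in the fit (0.0805). The Tapbp gene overlaps Zbtb22 by 3422 bases on the same strand, and 23.2% of its 50-base words occur in other transcripts of either strand.

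Among the inducible proteasome subunits, Psmb8 and Psmb9 rose and Psmb10 did not pass. Psmb8 (the counterpart of Psmb5) had 3.77, 5.11 and 10.8 FPKM at the lowest, median and highest in cuprizone vehicle libraries, against 2.65, 2.27, 1.83 and 1.64 FPKM in naive vehicle libraries, with no overlap (log2 difference 1.29, SE 0.18, adjusted p = 1.78e-05). Psmb9 (the counterpart of Psmb6) had 1.25, 2.15 and 3.00 FPKM, against 1.10, 0.602, 1.02 and 0.780 FPKM, also with no overlap (log2 difference 0.84, SE 0.19, adjusted p = 0.00298). Psmb10 (the counterpart of Psmb7) stood at a higher level than both in all 4 groups. It had 22.3, 26.7 and 29.2 FPKM at the lowest, median and highest under cuprizone vehicle, against 25.2, 19.8, 25.0 and 20.6 FPKM under naive vehicle. These groups overlapped, and the log2 difference of 0.21 (SE 0.08, adjusted p = 0.0726) passed only without naive vehicle 1, naive vehicle 3 or cuprizone vehicle 5 (adjusted p = 0.0364, 0.0433 and 0.0325). Psmb9 and Tap1 overlap each other by 212 bases on opposite strands. Of the 50-base words of Psmb8, 11.6% also occur in transcripts of Gm20496, an antisense gene, 9.22% of those of Tap2 in Gm15821 and 20.3% of those of Tapbp in Gm19412, both on the other strand. Reads from these stretches cannot be told apart unless the authors counted by strand, a step that the labels used here leave unstated. Psmb10 and B2m also lie within genes of the other strand (Gm16156 and Patl2) but share no such word with any other gene's transcripts.

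Nlrc5, a NOD-like receptor protein that acts in the nucleus on class I promoters, was the scarcest of the 10. It had 0.629, 1.28 and 1.60 FPKM at the lowest, median and highest in cuprizone vehicle libraries, against 0.471, 0.339, 0.456 and 0.420 FPKM in naive vehicle libraries. The groups did not overlap (log2 difference 0.84, SE 0.17, adjusted p = 0.000787). Nlrc5 averaged 0.421 FPKM under naive vehicle and 0.358 FPKM under naive BTKi, below the filter of 0.5 FPKM. It was thus tested only through the cuprizone libraries, where it is high, and the counts of the 10 genes include it. In all, 8 of the 10 genes were higher without overlap between these groups, against 5.92% of all genes tested.

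Under BTKi the same contrast gave 10 of 10 genes higher in cuprizone than in naive libraries, with a median log2 difference of 0.76. Over all genes 6.11% were higher and 1.77% lower, and scaling moved that split from 929 and 269 genes as deposited to 768 and 415 (median ratio) or 724 and 395 (quantile). The heavy chain H2-D1 had 29.1, 36.5 and 52.0 FPKM at the lowest, median and highest in 8 cuprizone BTKi libraries, against 17.7, 17.7, 20.3 and 21.0 FPKM in 4 naive BTKi libraries (log2 difference 0.97, SE 0.15, adjusted p = 0.000105). H2-K1 had 19.1, 24.1 and 35.6 FPKM, against 12.7, 11.5, 12.8 and 14.5 FPKM (log2 difference 0.97, SE 0.16, adjusted p = 0.000184). B2m had 128.6, 172.5 and 233.5 FPKM, against 88.5, 86.8, 89.5 and 95.8 FPKM (log2 difference 0.96, SE 0.16, adjusted p = 0.000206). None of the 3 overlapped between the groups.

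Of the transport and loading genes, Tap1 had 1.91, 2.17 and 4.00 FPKM at the lowest, median and highest under cuprizone BTKi, against 1.25, 1.04, 1.31 and 1.05 FPKM under naive BTKi, with no overlap (log2 difference 0.83, SE 0.15, adjusted p = 0.000575). Tap2 had 3.81, 4.75 and 6.41 FPKM, against 3.87, 3.46, 3.13 and 4.01 FPKM. Its groups overlapped, because cuprizone BTKi 7 was below naive BTKi 1 and 4 (log2 difference 0.39, SE 0.10, adjusted p = 0.0100). Tapbp had 9.22, 11.2 and 13.9 FPKM at the lowest, median and highest, against 8.09, 8.78, 7.20 and 7.75 FPKM, and here the groups stood apart (log2 difference 0.48, SE 0.12, adjusted p = 0.0133).

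Psmb8 had 3.76, 4.92 and 7.37 FPKM at the lowest, median and highest under cuprizone BTKi, against 2.57, 2.17, 2.71 and 2.08 FPKM under naive BTKi (log2 difference 0.95, SE 0.18, adjusted p = 0.00111). Psmb9 had 1.06, 1.66 and 3.01 FPKM, against 0.663, 0.798, 1.01 and 0.815 FPKM (log2 difference 0.70, SE 0.19, adjusted p = 0.0207). Neither overlapped between the groups. Psmb10 had 22.2, 24.6 and 28.6 FPKM, against 18.8, 22.3, 22.3 and 20.6 FPKM, with overlap at the edge (log2 difference 0.26, SE 0.08, adjusted p = 0.0372). Nlrc5 had 0.506, 0.906 and 1.23 FPKM at the lowest, median and highest, against 0.408, 0.220, 0.231 and 0.575 FPKM, and cuprizone BTKi 1 and 3 fell below naive BTKi 4 (log2 difference 0.68, SE 0.17, adjusted p = 0.00863). In all, 7 of the 10 were higher without overlap under BTKi, against 5.70% of all genes tested.

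The calls of H2-D1, H2-K1, B2m, Tap1 and Psmb8 held in all 24 fits without 1 library in both cuprizone contrasts, and the other calls under BTKi were less firm. Without naive BTKi 3 the calls of Tap2, Tapbp and Nlrc5 ended (adjusted p = 0.0717, 0.0679 and 0.0526). Psmb9 lost its call without naive BTKi 1, 2 or 4 (adjusted p = 0.0806, 0.0566 and 0.0546) and without the filter on low values (0.0588). Psmb10 lost its call without naive BTKi 1 or 4 (adjusted p = 0.167 and 0.0991), without cuprizone BTKi 2, 4 or 8 (0.0589, 0.069 and 0.0749), without the filter (0.0858) and after median ratio scaling (0.0673). Without the 3 choroid-poor libraries 9 genes were called under vehicle and 10 under BTKi.

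**Figure D2:**
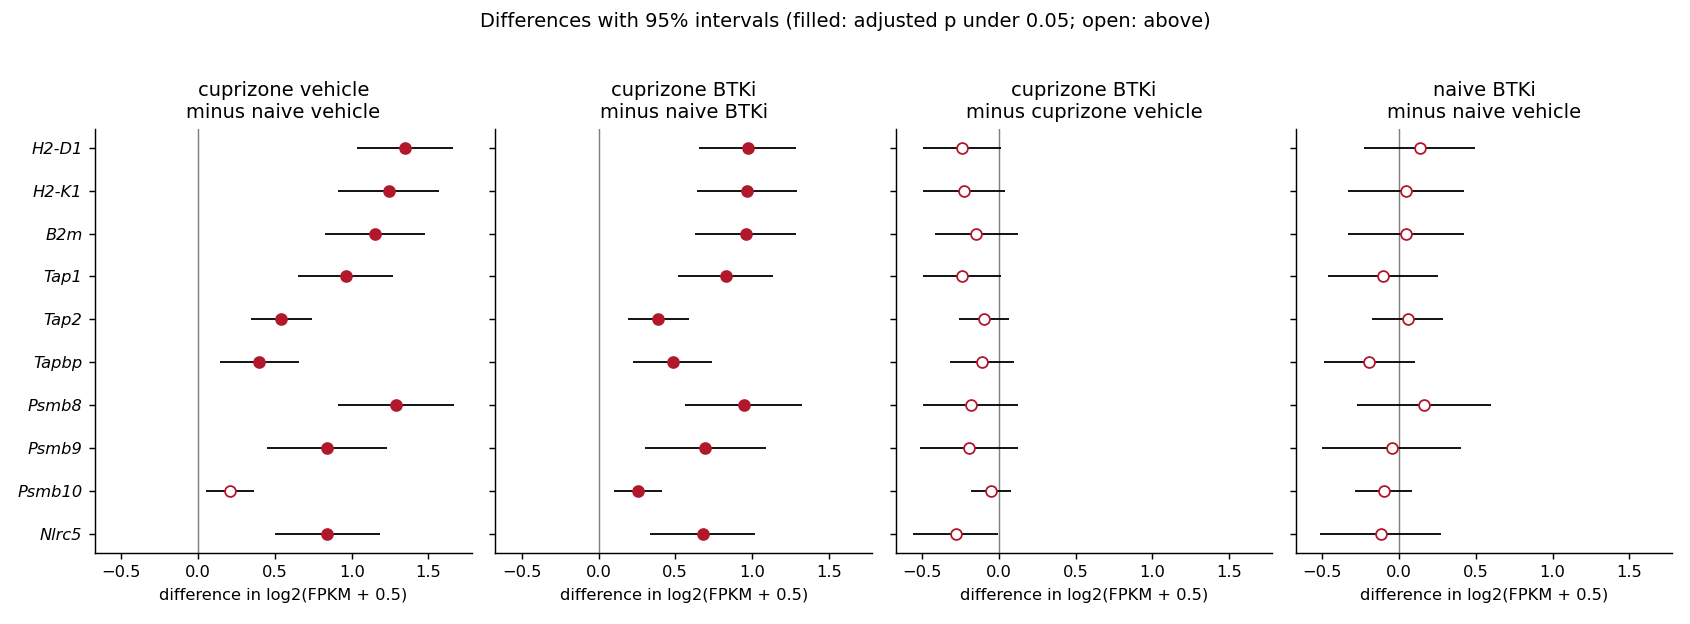
Difference in log2(FPKM + 0.5) for each gene in 4 contrasts, with 95% intervals from limma; filled points have an adjusted p under 0.05. Both cuprizone contrasts lie to the right of 0, from 0.21 to 1.35 under vehicle and 0.26 to 0.97 under BTKi, and both BTKi contrasts have open points only.

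BTKi against vehicle asked whether the inhibitor altered these genes, and none of the 10 genes passed in cuprizone or in naive mice. In cuprizone mice all 10 estimates were below 0, with a median of -0.19 on the log2 scale (all genes -0.02), and 27 genes of 15216, 0.177%, passed in either direction over the whole table by limma. H2-D1 had 29.1, 36.5 and 52.0 FPKM at the lowest, median and highest under cuprizone BTKi, against 34.7, 43.2 and 66.7 FPKM under cuprizone vehicle, and the groups overlapped widely (log2 difference -0.24, 95% interval -0.50 to 0.02, adjusted p = 0.607). B2m differed by -0.15 (95% interval -0.41 to 0.12) and Psmb8 by -0.18 (-0.49 to 0.13).

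Nlrc5 had the estimate furthest from 0 in that contrast, -0.28 (95% interval -0.56 to -0.002). It was the only 1 of the 10 with an unadjusted p under 0.05 (0.0484, adjusted p = 0.56), near the 8.79% of all genes tested that were under that level. Nlrc5 had 0.506, 0.906 and 1.23 FPKM at the lowest, median and highest under cuprizone BTKi, against 0.629, 1.28 and 1.60 FPKM under cuprizone vehicle. Single libraries moved these estimates in both directions. Without cuprizone vehicle 8, the vehicle library with the most microglial marker RNA, H2-D1 differed by -0.16, B2m by -0.05 and Psmb8 by -0.06. Without cuprizone BTKi 8, the BTKi library with the most, B2m differed by -0.20 and H2-K1 by -0.29 (-0.23 with all libraries). Psmb8 differed by -0.26 without cuprizone vehicle 7. Without the 3 choroid-poor vehicle libraries H2-D1, B2m and Psmb8 differed by -0.40, -0.29 and -0.38 (limma adjusted p = 0.317, 0.537 and 0.459). The intervals of H2-D1, H2-K1, Tap1, Psmb8 and Psmb9 reach from about -0.50 to 0.02 or above, so that a fall of that size and no change are both within them.

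In naive mice 5 estimates were above 0 and 5 below, from -0.19 for Tapbp (95% interval -0.49 to 0.10) to 0.16 for Psmb8 (-0.28 to 0.60). No gene was called by limma, against 0.217% of all genes, and 0 of 10 had an unadjusted p under 0.05 (the lowest was 0.189, for Tapbp), against 12.6% of all genes. B2m had 88.5, 86.8, 89.5 and 95.8 FPKM in naive BTKi libraries, against 93.7, 77.5, 82.7 and 96.2 FPKM in naive vehicle libraries, so that the BTKi libraries lay inside the range of the vehicle libraries. The difference between the cuprizone effects with and without BTKi was tested as an interaction: 0 of 10 genes passed (0.125% of all genes did), 0 had an unadjusted p under 0.05 (9.74% of all genes did), and the lowest was 0.0946 for H2-D1 by limma (adjusted p = 0.579, log2 difference -0.37, 95% interval -0.82 to 0.07). The cuprizone differences with and without BTKi are thus not shown to differ. The contrasts share libraries, since each group enters 2 of them.

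The RNA level of each inducible catalytic subunit was also set against that of its constitutive counterpart, as a ratio within a library that does not depend on how the library was scaled. It is a ratio of RNA and not of subunits in assembled proteasomes. Psmb8 stood at 10.3% ± 3.50 of Psmb5 in cuprizone vehicle libraries and 3.63% ± 0.718 in naive vehicle libraries (SD, n = 8 and 4). It stood at 9.14% ± 1.80 in cuprizone BTKi libraries and 4.01% ± 0.623 in naive BTKi libraries. Neither pair of groups overlapped, with log2 differences of 1.46 and 1.18 (each p = 0.00202, 2-sided exact permutation test, the smallest that 495 assignments of the libraries can give; adjusted p = 0.00808 over 12 tests).

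Psmb9 was 3.23% ± 0.948 of Psmb6 in cuprizone vehicle libraries and 1.39% ± 0.393 in naive vehicle libraries, and 2.74% ± 1.02 in cuprizone BTKi libraries and 1.27% ± 0.264 in naive BTKi libraries (log2 differences 1.21 and 1.05, exact permutation, adjusted p = 0.00808 and 0.0097). The Psmb10 pair started much higher. Psmb10 was 49.5% ± 5.10 of Psmb7 under cuprizone vehicle and 43.5% ± 6.40 under naive vehicle, with overlapping groups (log2 difference 0.19, exact permutation, adjusted p = 0.206). It was 49.3% ± 6.20 under cuprizone BTKi and 38.5% ± 1.37 under naive BTKi, without overlap (log2 difference 0.35, adjusted p = 0.0097).

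Between BTKi and vehicle no ratio was called, and the groups overlapped for all 3. In cuprizone mice the log2 differences were -0.13 for Psmb8 over Psmb5, -0.26 for Psmb9 over Psmb6 and -0.01 for Psmb10 over Psmb7 (exact permutation, adjusted p = 0.604, 0.441 and 0.939). The first of these was -0.02 without cuprizone vehicle 8, -0.06 without cuprizone vehicle 5 and -0.24 without cuprizone vehicle 7, and the second -0.39 without cuprizone BTKi 8, with no call in any of these. In naive mice they were 0.15, -0.11 and -0.16 in the same order (adjusted p = 0.604, 0.779 and 0.343). The smallest p that the exact permutation test can give for 4 against 4 libraries is 0.0286, before adjustment. Beside the other tests, a single naive ratio could not have reached an adjusted p under 0.05, so the naive result does not show an absence of change. The constitutive subunits Psmb5, Psmb6 and Psmb7 gave 0 calls by limma, with log2 differences of 0.02, -0.04 and 0.02 between cuprizone vehicle and naive vehicle and -0.09, -0.06 and -0.08 between cuprizone BTKi and naive BTKi. At an unadjusted p under 0.05 none of these 3 genes passed under vehicle or under BTKi either.

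**Figure D3:**
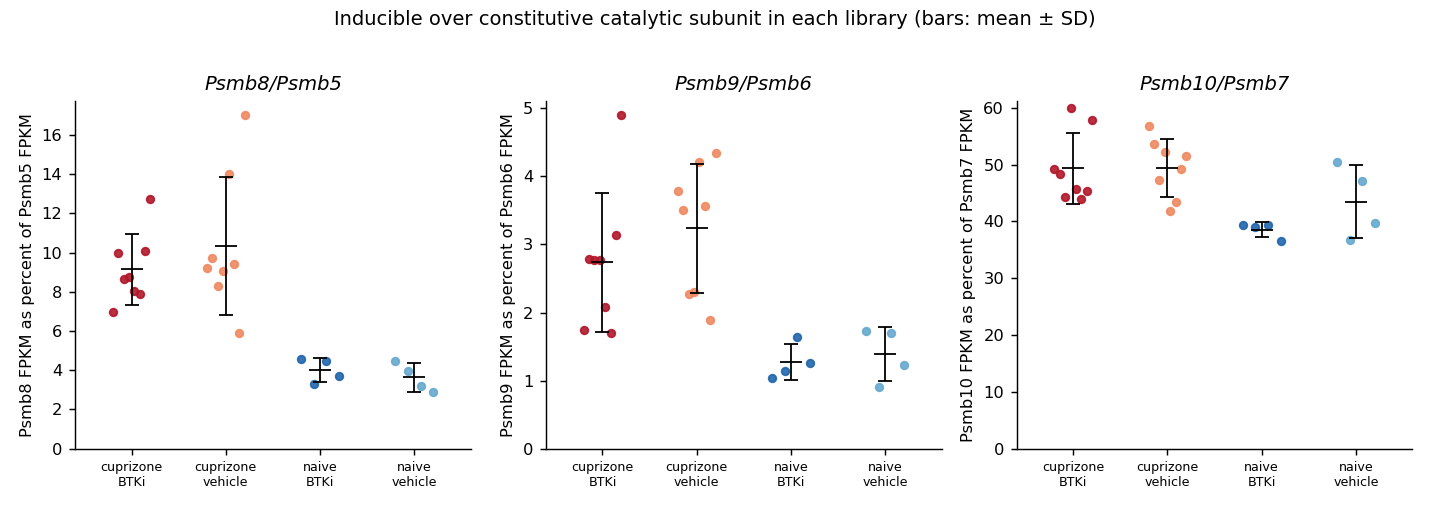
FPKM of each inducible subunit as a percent of its constitutive counterpart, by library (points) with mean and SD, in cuprizone BTKi and cuprizone vehicle (8 each) and naive BTKi and naive vehicle (4 each). The first 2 ratios are higher in cuprizone than in naive libraries of either treatment, on average 10.3% in cuprizone vehicle against 3.63% in naive vehicle for Psmb8 over Psmb5, while Psmb10 over Psmb7 averages 38.5% and 43.5% in the naive groups.

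Within the cuprizone groups most of the 10 genes ran high and low in the same libraries. Cuprizone vehicle 8 was the highest of its group for 8 of the 10 genes and cuprizone vehicle 5 for the other 2, and cuprizone vehicle 7 was the lowest for 9. The exception was Psmb10, which was lowest in cuprizone vehicle 5 (22.3 FPKM) and had 27.7 FPKM in cuprizone vehicle 7. Under BTKi, library 8 was the highest for 8 genes and library 2 for the other 2. The summed FPKM of the 10 genes ran from 225 to 383 in cuprizone BTKi libraries and from 256 to 494 in cuprizone vehicle libraries, against 155 to 168 in naive BTKi and 143 to 166 in naive vehicle libraries.

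Microglial markers moved with them. Of 16 such markers 13 were higher in cuprizone than in naive libraries under vehicle and 13 under BTKi, and their sum was 414 to 843 FPKM under cuprizone BTKi and 376 to 1120 FPKM under cuprizone vehicle, against 231 to 262 FPKM under naive BTKi and 225 to 272 FPKM under naive vehicle. The sum was highest in cuprizone vehicle 8 and lowest in cuprizone vehicle 7 within the vehicle group, and highest in cuprizone BTKi 8 within the BTKi group, the libraries at the ends for the class I genes too. Of the defining markers, Tmem119 and P2ry12 did not pass (log2 differences 0.09 and -0.02 under vehicle), while Csf1r rose by 0.93 and C1qa by 1.58. In bulk RNA, more cells of a type and more RNA per cell cannot be told apart, and the part of microglial number in the class I values was not tested. Endothelial markers, from a cell type known to carry class I in healthy brain, gave 0 calls of 10 in either contrast and summed to 105 to 126 FPKM under cuprizone vehicle and 106 to 113 FPKM under naive vehicle.

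**Figure D4:**
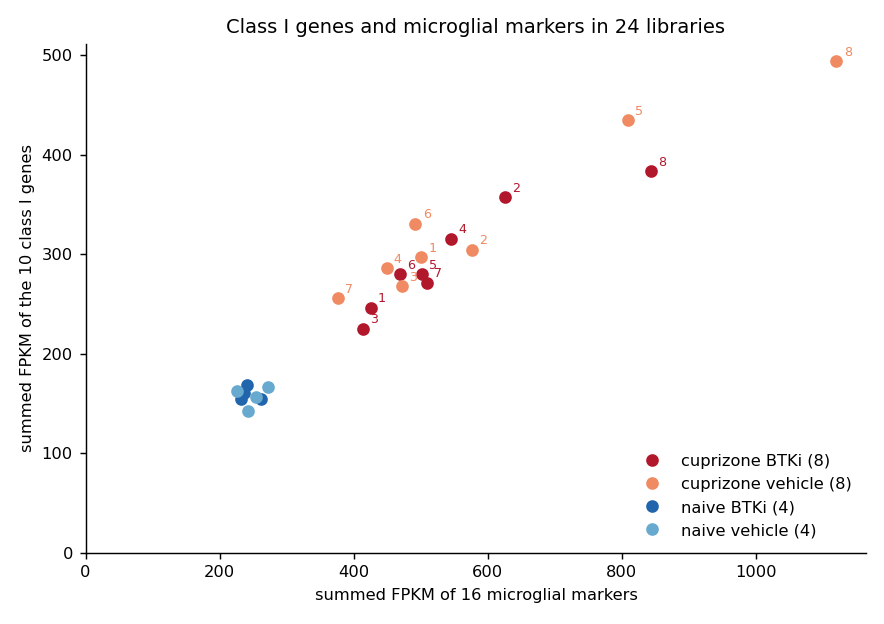
Summed FPKM of the 10 class I genes against summed FPKM of 16 microglial markers in 24 libraries, with cuprizone libraries numbered by replicate; both axes are linear and start at 0. The naive libraries sit at 225 to 272 FPKM of microglial markers and 143 to 168 FPKM of class I genes, and cuprizone vehicle 5 and 8 and cuprizone BTKi 8 lie at the upper end.

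The genes whose pattern was most like the mean of the 10 were largely myeloid. By Pearson correlation over 24 libraries the nearest were C1qb, Cyba, C1qa, Cd180, Trem2, Cd68, C1qc, Slc15a3, Ifi207 and Tnfrsf1a, with r between 0.981 and 0.985. C1qa, C1qb and C1qc encode the complement component C1q, Trem2 is a lipid receptor of microglia and Cd68 a lysosomal protein of phagocytes. After the group means were removed, the nearest were Cd180, C1qb, Ly86, Trem2 and Fcgr3 (r of 0.952 to 0.959). These correlations describe 24 libraries that share a table and their depth, and no test was made of them.

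Nlrc5 and the other 9 genes were compared within each cuprizone group of 8 libraries, 18 relations in all. In cuprizone BTKi libraries 7 of 9 passed by Pearson correlation and 8 by Spearman, with Pearson's r between 0.38 for Tap2 and 0.89 for H2-K1 (exact permutation of the libraries, adjusted over the 18). H2-K1 gave r = 0.89 and rho = 0.88 (exact permutation p = 0.00387 and 0.00724, adjusted p = 0.0348 and 0.0326), and r = 0.80 without the 2 libraries farthest from the median of Nlrc5. In cuprizone vehicle libraries 7 of 9 passed by Pearson and 5 by Spearman. There r was lowest for Psmb10, -0.13 (adjusted p = 0.752), and highest for Tap1, 0.82 with rho = 0.81 (exact permutation p = 0.0148 and 0.0218, adjusted p = 0.0475 and 0.0387), or 0.68 without the 2 farthest libraries. For Psmb9 under vehicle r was 0.74, and 0.34 without those 2 libraries, so that relation rests on them. The adjusted p-values of 14 Pearson relations lay between 0.0348 and 0.0493, and only 9 of the 18 passed after median ratio scaling. The microglial markers vary over the same libraries, and their part in these relations was not tested. The share of all genes tested that would pass against Nlrc5 was not computed. The counts are thus not shown to be particular to the class I genes.

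The rest of the class I pathway was mixed. Of 20 other class I heavy chain and class I-like genes, 11 were tested; 7 were higher in cuprizone vehicle than in naive vehicle libraries and 5 in cuprizone BTKi than in naive BTKi libraries, with median log2 differences of 0.52 and 0.41. H2-Q4 averaged 7.02 ± 1.79 FPKM under cuprizone vehicle and 2.51 ± 0.216 FPKM under naive vehicle (SD, n = 8 and 4; log2 difference 1.29, limma adjusted p = 5.99e-06). H2-Q6 rose by 1.27 (adjusted p = 0.00024), H2-Q7 by 1.11 (0.000919) and H2-T23, which encodes the Qa-1 molecule, by 0.83 (5.85e-05). H2-Q6 and H2-Q7 averaged 0.417 and 0.443 FPKM under naive vehicle, below the level of the filter, which they passed through the other groups. Under BTKi the differences were 0.81 for H2-Q4 (adjusted p = 0.00227), 0.75 for H2-Q6 (0.0378), 0.54 for H2-Q7 (0.165) and 0.41 for H2-T23 (0.0544). These genes are near copies of one another and could share reads.

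Peptide trimming and loading outside the 10 genes hardly moved. Of 7 such genes only Erap1, an aminopeptidase that trims peptides in the endoplasmic reticulum, was called in each contrast, with log2 differences of 0.27 (adjusted p = 0.0276) under vehicle and 0.30 (0.0243) under BTKi. The folding helpers Calr, Canx and Pdia3 differed by -0.08, -0.01 and -0.08 under vehicle, and none passed. In the proteasome, 1 of 11 other core subunits was higher under vehicle (Psmb3, log2 difference 0.13) and 0 under BTKi, and 2 of 17 subunits of the 19S cap were higher under vehicle (Psmd7 and Psmd4, by 0.13 and 0.12) and 0 under BTKi.

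The interferon-inducible activator of the proteasome was an exception. Psme1, a subunit of the PA28 cap, averaged 23.9 ± 3.14 FPKM in cuprizone vehicle libraries and 16.8 ± 0.481 FPKM in naive vehicle libraries (SD, n = 8 and 4; log2 difference 0.48, limma adjusted p = 0.000229). Its partner Psme2 averaged 19.5 ± 1.13 FPKM and 16.5 ± 1.08 FPKM in the same groups (log2 difference 0.24, adjusted p = 0.00408). Under BTKi the differences were 0.31 for Psme1 (adjusted p = 0.0224) and 0.13 for Psme2 (0.186). They were the 2 genes called under vehicle among 9 activators and assembly factors.

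**Figure D5:**
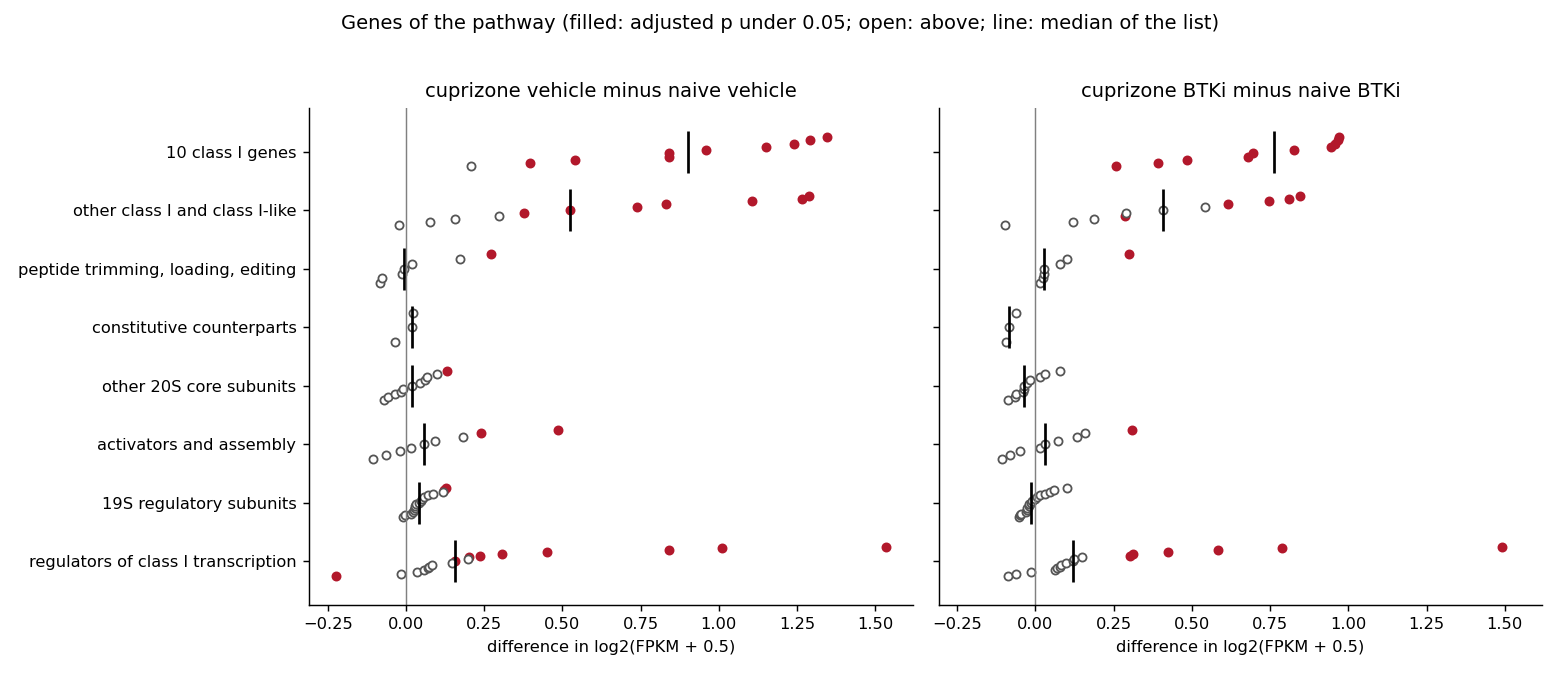
Difference in log2(FPKM + 0.5) of each tested gene (points) in 8 lists of the class I pathway, for cuprizone vehicle minus naive vehicle and cuprizone BTKi minus naive BTKi, with the list median as a line; filled points have an adjusted p under 0.05. The 10 class I genes have medians of 0.90 and 0.76, and the constitutive subunits, other core subunits and 19S subunits lie close to 0.

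Of the regulators, 17 of 18 were tested, and 8 were higher and 1 lower under vehicle, with 6 higher and none lower under BTKi. Irf8, a myeloid transcription factor, rose by 1.53 under vehicle and 1.49 under BTKi on the log2 scale (adjusted p = 1.91e-05 and 5.42e-05). Irf9, a subunit of the factor that type I interferon activates, rose by 0.84 under vehicle and 0.58 under BTKi (limma adjusted p = 5.29e-08 and 2.08e-05). Irf1, which binds class I promoters, rose by 0.45 (0.0046) and 0.42 (0.0121). The gene lower under vehicle was Rfxank, a subunit of the RFX complex, at -0.22 (adjusted p = 0.0104). Ciita, the class II counterpart of Nlrc5, was not tested, at an average of 0.0415 FPKM under cuprizone vehicle and 0.0091 FPKM under naive vehicle.

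Interferon genes themselves were near the floor of the table. Ifng and Ifnb1 were each listed at 0 in 22 libraries and Ifna4 in all 24. The receptor subunits were expressed, and Ifngr2 rose by 0.16 under vehicle (adjusted p = 0.0419) and Ifngr1 by 0.34 under BTKi (0.0179). Among 9 genes listed as receptors for class I molecules or as relatives of these, only Lilrb4a was tested. Pirb, Klrd1, Klrc1, Klrk1 and Klra2 were below the filter. Pirb, the highest of these, averaged 0.446 FPKM under cuprizone vehicle and 0.143 FPKM under naive vehicle and was not tested. Lilrb4a encodes an inhibitory receptor of myeloid cells, and its binding to class I molecules was not tested. It averaged 3.74 ± 1.98 FPKM in cuprizone vehicle libraries and 0.245 ± 0.101 FPKM in naive vehicle libraries (log2 difference 2.39, adjusted p = 9.51e-07), and differed by 1.93 under BTKi (3.48e-05).

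Markers of the cells that read class I were low. Of 14 markers of CD8 T and NK cells 2 were tested and 0 called in any contrast, and the 14 summed to 8.60 to 11.2 FPKM under cuprizone BTKi and 8.63 to 12.5 FPKM under cuprizone vehicle, against 9.95 to 12.8 FPKM under naive BTKi and 9.31 to 12.9 FPKM under naive vehicle. Most of that sum was Trbc2, with a median of 9.19 FPKM over 24 libraries. Cd8a had a median of 0.0295 FPKM and was listed at 0 in 5 libraries, Cd3e had a median of 0.0643 FPKM, and the cytotoxic protein gene Prf1 was listed at 0 in 15. The 2 tested were Trac and Trbc2, with log2 differences of 0.14 (95% interval -0.17 to 0.45) and -0.01 (-0.23 to 0.21) between cuprizone vehicle and naive vehicle libraries and 0.16 (-0.15 to 0.47) and -0.27 (-0.48 to -0.05) between cuprizone BTKi and naive BTKi libraries (limma adjusted p = 0.587, 0.959, 0.635 and 0.149).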

How the data were processed

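The data were 24 bulk RNA libraries of mouse corpus callosum. Per the labels' protocols, polyadenylated RNA was isolated with a Qiagen RNeasy Micro kit and made into libraries with a TruSeq stranded mRNA kit. The authors deposited 1 table of FPKM values per gene, a unit taken from the table's name and its column sums (462521 to 496350). Aligner, counter, genome build and annotation: not given in the sources used here. All columns were matched to samples by their descriptions. Of 54446 identifiers, 53229 matched GENCODE M21 with their version; H2-K1, Tapbp, Psmb8 and Psmb9 matched without it.

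From the deposited FPKM, log2(FPKM + 0.5) of 15216 genes with a mean of at least 0.5 FPKM was fitted over 4 groups with limma 3.58.1 (R 4.3.3, tested on simulated data), and p-values were adjusted by Benjamini-Hochberg over all genes in each contrast. Ratios and correlations used exact permutation tests. Depth was approximated from 3550 low genes, and no count test was run. Of their values, 74.5% lay within 0.1 of a whole multiple of 1 fragment, against 20.0% by chance for values independent of that unit. The smallest value of each gene set its unit, so part of the 74.5% is fixed by construction. The 68 pairs of libraries of 1 group had a spread of log2 differences between 0.208 and 0.335, and none was taken for a duplicate.

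The 10 genes and the other lists were chosen with earlier results of these data known. From the other lists at most 4 called genes, largest change first, are named, plus Psmb5, Psmb6, Psmb7, Psme1 and Psme2; other names were chosen after their values were seen. Similar genes are the 10 nearest by correlation and the 5 nearest within groups. Alternatives were the pseudocount, the filter, 2 scalings, fits of 2 groups, a replicate block and left-out libraries. The labels give groups the same replicate numbers without saying that these pair the libraries.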

Additional observations from a re-analysis of the deposited data

Results flagged for a closer look

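In 52 groups of 4 to 8 libraries (each of the 10 genes and 3 subunit ratios in 4 groups) 3 had a library farther from the rest than Dixon's critical value, and chance gives about 1 in 20. Psmb9 in cuprizone BTKi 8 was 3.01 FPKM, above 1.88 in the next library, and Psmb9 as a percent of Psmb6 in the same library was 4.90%. That library also had the highest microglial marker sum of its group, 843.2 FPKM, and the part of this in the Psmb9 value was not tested. Psmb10 as a percent of Psmb7 in naive BTKi 4 was 36.5%, the lowest of 4 libraries.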

How the results depend on the processing

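The number of the 10 genes called stayed at 8 to 10 under vehicle and 7 to 10 under BTKi in all settings tried, including 24 fits without 1 library, and at 0 in the other 3 contrasts. No called difference changed sign. Differences near 0 did: between naive BTKi and naive vehicle, Psmb9 gave 0.0059 after quantile normalization, and without 1 library it ran from -0.15 to 0.029, B2m from -0.0093 to 0.094, and H2-K1 from -0.0096 to 0.099. In the interaction Psmb10 ran from -0.0024 to 0.11, and Tapbp gave -0.035 without the 3 choroid-poor libraries, a setting added once the data had been seen. The ratio of Psmb9 to Psmb6 between naive BTKi and naive vehicle ran from -0.29 to 0.014, and that of Psmb10 to Psmb7 between cuprizone BTKi and cuprizone vehicle from -0.048 to 0.023. Of the relations of Nlrc5, 9 passed after median ratio scaling, against 14; the cause was not tested. Same-numbered libraries did not deviate together throughout (r from -0.27 to 0.32). This does not settle whether the numbers pair them, since paired libraries need not deviate together over all genes. With the replicate block 9 genes were called in each cuprizone contrast; the call of Psmb9 under BTKi ended (log2 difference 0.61, adjusted p = 0.0589). With a filter at a mean of 1 FPKM, 8 genes were called under vehicle and 9 under BTKi, since Nlrc5 was then not tested. Nlrc5 and Psmb9 rest on the fewest fragments of the 10, about 56 and 66 in their lowest libraries.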

Other observations

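Astrocyte, neuron and blood cell markers give the wider setting of the class I values. Of 8 astrocyte markers 4 were higher and 1 lower in cuprizone vehicle than in naive vehicle libraries, and 4 were higher in cuprizone BTKi than in naive BTKi libraries, with median log2 differences of 0.23 and 0.26. None of 8 neuronal markers was called by limma in either contrast, with medians of 0.02 and -0.07. Of 6 B cell markers only Ighm reached the filter, at a median of 26.4 FPKM over 24 libraries. None of 6 neutrophil markers reached it, and Ly6g was listed at 0 in all 24 libraries. None of the 8 choroid plexus markers was called, although their median log2 difference was -1.28 under vehicle, and their sums ran from 32.0 to 1539 FPKM among cuprizone vehicle libraries.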
